A study of Mus musculus with 26 samples.

Results

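Intermediate filament genes were followed in motor neuron spheroids: the 4 neurofilament subunit genes Nefl, Nefm, Nefh and Ina, the peripherin gene Prph, the nestin gene Nes and the vimentin gene Vim. They were taken by symbol and make up 7 of the 56941 genes in the deposited tables. All 7 were found, and all 7 passed the filter on low counts. All spheroids were grown from mouse embryonic stem cells of the line HBG3, with a GFP reporter for HB9, a transcription factor of motor neurons, so every library carries that reporter and derives from 1 line. Per the labels, the stem cells were expanded on a feeder layer, differentiated with retinoic acid and puromorphamine (as the labels spell it), given CNTF and GDNF from day 5, and moved to a fibrin platform at about day 8. The 5 groups were spheroids on a magnetic silicone array actuated for 30 min a day at 4 Hz (actuated array), spheroids on the same array that was never actuated (static array), spheroids in medium labelled high intensity, spheroids in medium labelled low intensity, and controls of the medium experiment. The design text speaks of medium from optogenetic muscle that was or was not stimulated with light, and its sample names match neither intensity in the labels. The groups are therefore named by intensity, and that both intensity groups received muscle medium and the controls did not is assumed here. The labels do not say whether replicates came from separate cultures, so p-values measure the spread between these samples, which may be technical.

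Intermediate filaments are rope-like polymers of coiled-coil proteins. In neurons, the light, medium and heavy neurofilament proteins assemble with alpha-internexin (Ina) or peripherin, fill the axon, and are known for setting the calibre of large motor axons. Nestin and vimentin are the filament proteins of neural progenitors and radial glia, and vimentin is also the main filament protein of mesenchymal cells. As a neuron matures, its filaments are known to pass from nestin and vimentin to alpha-internexin and then to the neurofilament triplet.

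Of the 7 genes, 4 had a promoter in the RefSeq table used (build GRCm38.p6). The 150 bases before each annotated start are printed so that Nes and Vim, whose levels varied together across the libraries, can be read beside Ina and Prph. All 4 genes lie on the plus strand, and the sequences run 5′ to 3′. Capitals mark the TATA box (TATAAA), the GC box (GGGCGG) and the CCAAT box (CCAAT), each searched on both strands, with no overlap between them.
Nes, chr3:87970943-87971092: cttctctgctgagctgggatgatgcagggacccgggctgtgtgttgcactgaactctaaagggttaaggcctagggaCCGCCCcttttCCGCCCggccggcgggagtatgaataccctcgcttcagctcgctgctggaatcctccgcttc
Vim, chr2:13574161-13574310: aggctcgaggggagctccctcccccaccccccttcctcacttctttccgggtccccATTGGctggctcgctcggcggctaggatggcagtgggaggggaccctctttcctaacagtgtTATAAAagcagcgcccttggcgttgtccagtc
Ina, chr19:47014531-47014680: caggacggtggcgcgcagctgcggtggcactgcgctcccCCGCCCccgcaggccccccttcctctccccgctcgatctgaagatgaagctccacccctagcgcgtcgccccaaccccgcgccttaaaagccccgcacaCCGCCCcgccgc
Prph, chr15:99055024-99055173: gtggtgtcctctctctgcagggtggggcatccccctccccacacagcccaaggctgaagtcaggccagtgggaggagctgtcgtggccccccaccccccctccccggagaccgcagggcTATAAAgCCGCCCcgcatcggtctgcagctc
The Vim window held a TATA box starting at base -32 and a CCAAT box read on the opposite strand starting at -94, and no GC box. The Nes window held 2 GC boxes, starting at -73 and -62, and neither of the other boxes. Ina held 2 GC boxes, starting at -111 and -12. Prph held a TATA box starting at -31 and a GC box starting at -24. Among 32851 windows of the same length, 7.57% held TATAAA, 28.6% held GGGCGG and 24.5% held CCAAT. The AP-1 letters TGANTCA, present in 4.24% of the windows, and the CRE letters TGACGTCA, present in 1.36%, were in none of these 4. The E box letters CANNTG, present in 47.7% of the windows, were in the Ina window alone. GC content was 60.7% for Nes, 62.7% for Vim, 69.3% for Prph and 74% for Ina, against a median of 54% over all windows. These matches describe letters only.

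Depth differed between libraries. Of the 26, 21 held over 1000000 counts on protein-coding genes and are called the deeper libraries: 5 controls, 4 high-intensity, 5 low-intensity, 3 static-array and 4 actuated-array libraries. Their totals ran from 1551334 to 3971348 counts in the medium experiment and from 7269276 to 13162635 on the arrays. The 5 libraries below the minimum were static replicate 3, low replicate 6, control replicate 4, and high replicates 4 and 5, with 1151 to 457670 protein-coding counts, while the shallowest library kept had 1284256. In low replicate 6, which held 1536 counts, the 7 genes summed to 1 count, on Vim. In control replicate 4, 78.4% of the counts fell on rRNA genes. Normalised counts (CPM, per 1000000 counts) are scaled by TMM over the deeper libraries, and a gene is called where edgeR's quasi-likelihood test gave an adjusted p under 0.05 over all 14730 genes fitted. When all 26 libraries were fitted together, TMM factors ran from 0.233 to 36.7 instead of 0.852 to 1.085, the common dispersion was 0.251 instead of 0.0923, and none of the 7 genes was called in any comparison. Of all genes, 0.0402% were then called in high intensity, 0.0268% in low intensity and 0.0134% on the static array against control, and 0% in the other 2 comparisons.

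The label of a motor neuron was set against its markers. Over the deeper libraries, Prph averaged 365 TPM (transcripts per 1000000, a level corrected for transcript length), the acetylcholine transporter gene Slc18a3 27.3 TPM, Ret 26.2 TPM, Chat 4.96 TPM, Isl1 4.52 TPM and the reporter's parent gene Mnx1 4.17 TPM. Isl2 was under 1 TPM, at 0.844, and was at 0 in 8 of the 21 libraries. Pan-neuronal genes were abundant, with Map2 at 440.5 TPM, Tubb3 at 399 TPM and Stmn2 at 356 TPM. Markers of astrocytes and radial glia were high as well, with Gfap at 865 TPM, Fabp7 at 806 TPM and Slc1a3 at 158 TPM. In such bulk samples, fewer cells of a type and less RNA per cell cannot be told apart.

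Per length, Nefl was the most abundant of the 7 genes in 19 of 21 deeper libraries, at 703 to 2710 TPM with a median of 1691, and its rank among protein-coding genes lay between 10 and 39. Vim followed with a median of 699 TPM (188 to 1806), then Nefm with 498 TPM (169.5 to 904) and Prph with 360.3 TPM (162 to 579). Ina, at a median of 118 TPM, and Nefh, at 86.7 TPM, stood below them, and Ina was above Nefh in 21 of 21 libraries. Nes was lowest, at a median of 26.7 TPM, and ranged from 11.3 to 114 TPM. Vim and Nefm, neighbours in this order, did not keep it: Vim was above Nefm in 15 of 21 libraries, and the 6 exceptions were all 5 controls and static replicate 1. Nefm was above Prph in 18 of 21 libraries. Vim stood above Nefl in 2 libraries, low replicates 1 and 5, and Nes stood above Ina and Nefh in 2 libraries, low replicate 5 and high replicate 3. The whole order Nefl, Vim, Nefm, Prph, Ina, Nefh, Nes held in 9 libraries.

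Within the summed TPM of the 4 neurofilament genes, Nefl took 60.9 to 76.8%, Nefm 15.4 to 29.4%, Ina 4.13 to 6.85% and Nefh 2.67 to 4.18% in every deeper library. The light subunit gene thus held the largest of these 4 shares in all 21 libraries. Nes and Vim took a more variable part: together they made up 14.2, 17.4, 19.6, 14.0 and 15.3% of the summed TPM of the 7 genes in control replicates 1, 2, 3, 5 and 6. Their share in low replicates 1 to 5 was 41.6, 30.0, 17.4, 19.2 and 41.5%, and in high replicates 1, 2, 3 and 6 it was 25.8, 22.9, 41.6 and 18.7%. It was 17.0, 17.2 and 21.2% in static replicates 1, 2 and 4, and 17.3, 19.98, 16.0 and 18.4% in actuated replicates 1 to 4. Low replicates 1, 2 and 5 and high replicates 1, 2 and 3 were above every array and control library, and the other medium libraries were not. A share within 7 genes also moves when the neurofilament genes move, so the genes are described 1 by 1.

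**Figure D1:**
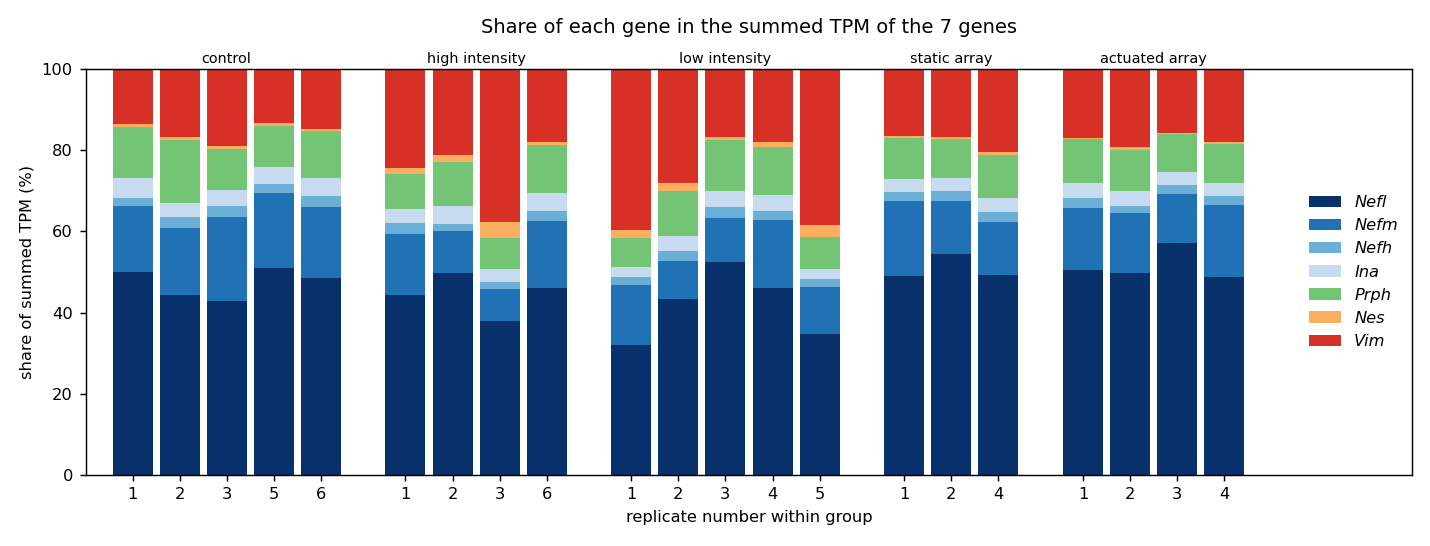
Stacked bars give the share (%) of each of the 7 genes in their summed TPM, 1 bar for each of the 21 deeper libraries, with replicate numbers on the horizontal axis and the group above. The Nes and Vim segments together reach 41.6% in low replicate 1 and 41.6% in high replicate 3, against 14.0 to 19.6% in the controls.

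Nes and Vim were the 2 of the 7 genes that were called, both higher in low-intensity medium than in the controls. Nes rose 2.69-fold and Vim 2.02-fold. The 4 neurofilament genes and Prph had log2 differences of -0.40 to -0.07 in that comparison. None of them was called in the main fit (edgeR, filtered, deeper libraries). Across all genes fitted, 0.441% were called higher, 0.156% lower and 0.597% in either direction in that comparison, and 15.2% had an unadjusted p under 0.05. Both calls were lost when all 26 libraries were fitted, and also with limma-voom (adjusted p 0.219 for Nes and 0.154 for Vim), with only the 2 groups compared (0.0794 and 0.0918 in edgeR) and with TPM centred on the median gene (0.0852 and 0.0531 in limma). Adding a replicate block to the edgeR fit lost both calls as well. DESeq2 called both (0.019 and 0.00862). Of the neurofilament genes, Nefm was called lower under 1 alternative, and Nefl was called higher in uncentred TPM, with its sign reversed.

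Nes encodes nestin, the filament protein by which neural stem and progenitor cells are commonly recognised. Its level was 123, 168, 116, 107 and 103 CPM in control replicates 1, 2, 3, 5 and 6. It was 380.4, 354, 117, 206 and 601 CPM in low replicates 1 to 5. Low replicates 1, 2, 4 and 5 were above every control, and low replicate 3 lay within the control range. The means were 332 ± 185 CPM (SD, n = 5) in low-intensity medium and 123 ± 26.04 CPM (SD, n = 5) in the controls. The log2 fold change was 1.43 (SE 0.33), with an adjusted p of 0.0443 in edgeR's quasi-likelihood test and a 95% interval of 0.78 to 2.08. With all 26 libraries it was 1.23 (SE 0.44), adjusted p = 0.582. The call was near its threshold: of 21 fits that each left out 1 deeper library, 5 kept it, and the adjusted p ran from 0.0114 to 0.139. It was lost without any 1 of low replicates 1 (log2 1.38), 2 (1.41) and 5 (1.10), without any 1 of the 5 controls (1.37 to 1.57), and without any 1 of 8 libraries outside the comparison, which are actuated replicates 1, 3 and 4 (adjusted p 0.0585, 0.0537 and 0.0585 in edgeR), high replicates 1 and 2 (0.0529 and 0.0524) and static replicates 1, 2 and 4 (0.058, 0.0554 and 0.0505). Nes stayed higher in low-intensity medium in each of these fits.

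In high-intensity medium Nes was 184, 223, 487 and 126 CPM in replicates 1, 2, 3 and 6. Replicates 1, 2 and 3 were above every control, and replicate 6 lay within their range. The log2 difference from the controls was 1.04 (SE 0.35), adjusted p = 0.134 in edgeR, and it was not called. Without high replicate 3 the difference was 0.52, and without high replicate 6 the adjusted p was 0.049. In the 2 high-intensity libraries below the depth minimum, replicates 4 and 5, Nes had 20 and 34 counts, or 82.1 and 68.7 counts per 1000000 of the library total, which is under every deeper control. High and low intensity did not separate for Nes, with a log2 difference of -0.39 (SE 0.35), an interval of -1.07 to 0.29 and an adjusted p of 0.839 in edgeR.

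On the static array Nes was 124, 110.04 and 143 CPM in replicates 1, 2 and 4, all within the control range, with a log2 difference of 0.02 (SE 0.38, adjusted p = 0.987 in edgeR). It was 103, 157, 79.4 and 92.3 CPM in actuated replicates 1 to 4, of which 3 and 4 lay below every control. Actuated replicate 1 (102.57 CPM) was below control replicate 6 (103.47 CPM), the lowest control, by far less than the spread of the controls. Actuated array against control was not tested. The 2 array groups overlapped, and the log2 difference of actuated against static array was -0.22 (SE 0.39, interval -0.98 to 0.54, adjusted p = 1 in edgeR).

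Vim encodes vimentin, shared by progenitors, astrocytes and mesenchymal cells. It was 637, 928, 862, 603 and 699 CPM in control replicates 1, 2, 3, 5 and 6, and 2135, 1406, 897, 864 and 2213 CPM in low replicates 1 to 5. Low replicates 1, 2 and 5 were above every control, as for Nes, while low replicates 3 and 4 lay within the control range. The means were 1503 ± 649.7 CPM (SD, n = 5) and 746 ± 143 CPM (SD, n = 5). The log2 fold change was 1.01 (SE 0.22), adjusted p = 0.0352 in edgeR, with a 95% interval of 0.59 to 1.44. With all 26 libraries it was 0.81 (SE 0.42), adjusted p = 0.991. Of the 21 fits that left out 1 library, 16 kept the call. It was lost without low replicate 1 (log2 0.85, adjusted p 0.12 in edgeR), 2 (1.04, 0.0716) or 5 (0.83, 0.1), and without control replicate 1 (0.96, 0.0665) or 5 (0.94, 0.0708).

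In high-intensity medium Vim was 1003, 807, 1526 and 839 CPM in replicates 1, 2, 3 and 6, so replicates 1 and 3 exceeded the controls and 2 and 6 did not. The log2 difference was 0.48 (SE 0.23), adjusted p = 0.293 in edgeR. High against low intensity gave -0.53 (SE 0.23, interval -0.98 to -0.08, adjusted p = 0.612 in edgeR). On the static array Vim was 1029, 1059 and 1029 CPM in replicates 1, 2 and 4, above every control. How many of all genes separate these groups in the same way was not counted. The difference from the controls was 0.48 on the log2 scale (SE 0.24, adjusted p = 0.428 in edgeR) and was not called. Actuated replicates 1 to 4 gave 1058, 1098, 924 and 1013 CPM, overlapping the static array, with a log2 difference of -0.02 (SE 0.26).

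**Figure D2:**
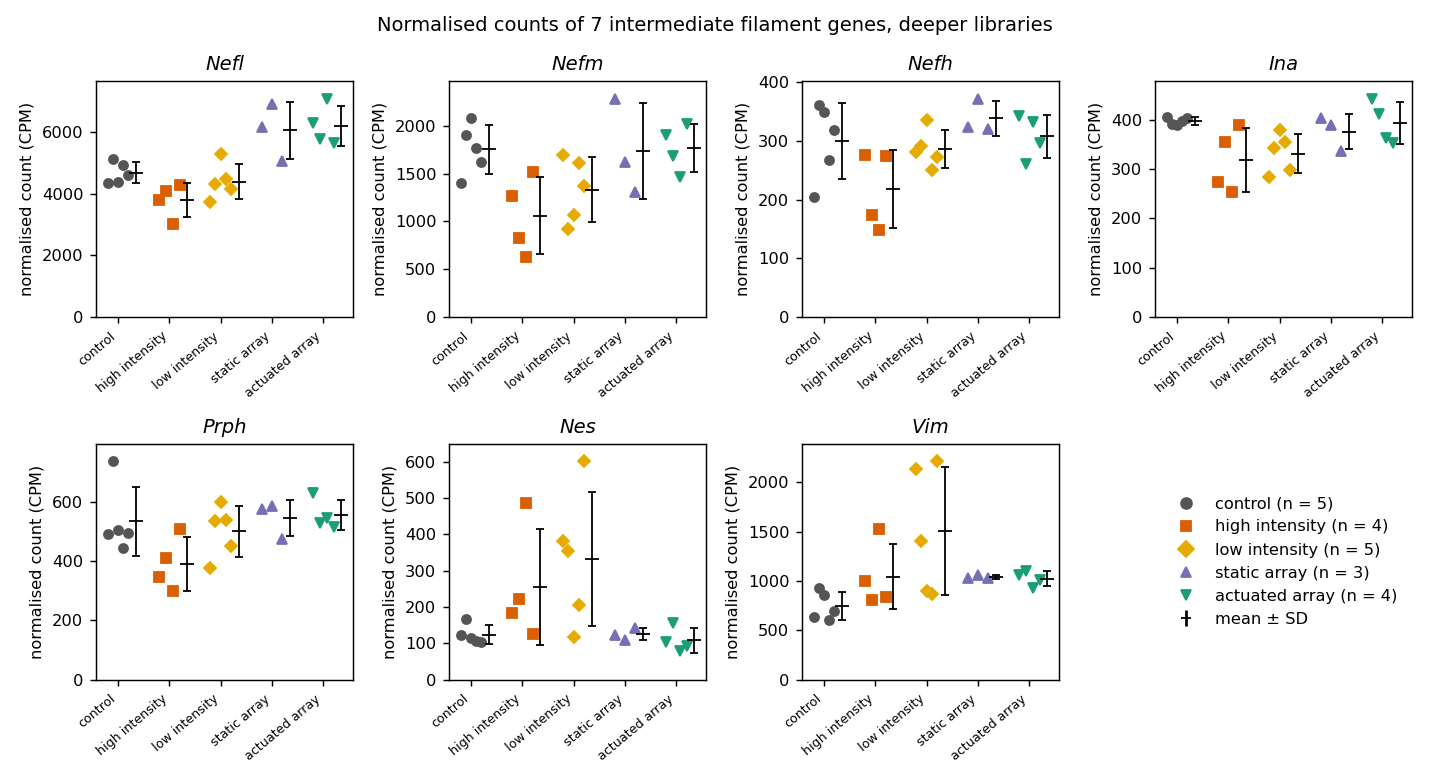
Each panel gives 1 gene in CPM (vertical axis, from 0) by group, with 1 point per deeper library and the mean with its SD as a black bar beside the points. Nes and Vim are spread widely in the 2 medium groups, where low replicate 5 reaches 601 CPM of Nes and 2213 CPM of Vim, and lie close together in the controls.

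The neurofilament subunit genes showed no called difference in any comparison in the main edgeR fit. With no filter on low counts, edgeR called Nefl on the static array against control. In high-intensity medium, however, all 4 and Prph had log2 differences from the controls below 0, between -0.72 and -0.30, and all 7 genes had an unadjusted p under 0.05 in edgeR's test. That holds for 15.9% of all genes fitted in that comparison, of which 0.462% were called, 0.305% higher and 0.156% lower. None of the 7 was called there: the adjusted p-values ran from 0.104 for Nefm to 0.293 for Vim. DESeq2's Wald test and limma-voom called none of the 7 either. With no filter on low counts, however, edgeR called Nefm, Prph, Nes and Vim there. Nefm was also called there in 1 of the 21 edgeR fits that left out a library. In uncentred TPM the 4 values of Nefl, Nefh, Ina and Prph turn positive (0.11 to 0.32), on a scale on which the median gene itself stands 0.53 higher in high-intensity medium.

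Nefl encodes the light subunit, on which the other neurofilament proteins assemble. It was 4346, 5120.4, 4372, 4936 and 4592 CPM in control replicates 1, 2, 3, 5 and 6, and 3791, 4079, 3021 and 4270.3 CPM in high replicates 1, 2, 3 and 6. The groups did not overlap, which was not set against the share of all genes that do the same. The log2 difference was -0.30 (SE 0.12, interval -0.53 to -0.07, adjusted p = 0.196 in edgeR). In low replicates 1 to 5 it was 3716, 4323, 5275, 4470.5 and 4147 CPM, which overlapped the controls. On the static array it was 6149, 6918 and 5070.5 CPM in replicates 1, 2 and 4, and in actuated replicates 1 to 4 it was 6292, 5762, 7081 and 5639 CPM. All 4 actuated libraries and 2 of 3 static libraries lay above every library of the medium experiment, and static replicate 4 lay just below control replicate 2. The share of all genes that separate in this way was not counted, and the actuated array was not tested against any medium group. Static array against control gave a log2 difference of 0.37 (SE 0.12, unadjusted p 0.00648, adjusted p = 0.178 in edgeR), and limma-voom called Nefl there (adjusted p = 0.0396). Of all genes fitted, 0.713% were called in that comparison (0.299% higher, 0.414% lower) and 12.6% had an unadjusted p under 0.05. Those 2 groups also differ in the array, the medium experiment and depth, which cannot be told apart. Of the 9 fitted motor neuron markers 3 had a log2 difference above 0 in static array against control, with a median of -0.29, and 1 was called. The called gene was Slc5a7, the choline transporter gene, which fell by 1.88 on the log2 scale (adjusted p = 0.00392 in edgeR, 0.59 with all 26 libraries and 0.0562 without static replicate 4).

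Nefm encodes the medium subunit, whose side arm projects from the filament. It was 1401, 1906, 2078, 1764 and 1617 CPM in control replicates 1, 2, 3, 5 and 6. In high replicates 1, 2, 3 and 6 it was 1270.2, 824, 628 and 1519 CPM. Replicates 1, 2 and 3 were below every control and replicate 6 was not. The means were 1060.2 ± 407 CPM (SD, n = 4) and 1753 ± 260.3 CPM (SD, n = 5), and the log2 difference was -0.72 (SE 0.22, interval -1.15 to -0.30, adjusted p = 0.104 in edgeR). Without high replicate 6 it was -0.94, adjusted p = 0.028, and Prph (-0.60, 0.0475) and Nes (1.28, 0.049) also passed the threshold in that fit. In low replicates 1 to 5 Nefm was 1697, 918, 1067, 1614 and 1371 CPM (log2 difference -0.40, adjusted p = 0.354). Static replicates 1, 2 and 4 gave 2287, 1619 and 1303 CPM, a spread of 502 (SD) that the 4 actuated libraries, at 1904, 1685, 1461 and 2021 CPM, fell within.

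Nefh encodes the heavy subunit, the last of the triplet to appear in development. It was 205, 361, 349.5, 267 and 319 CPM in control replicates 1, 2, 3, 5 and 6, and 276, 173, 149 and 275 CPM in high replicates 1, 2, 3 and 6. The ranges overlapped, and the log2 difference was -0.46 (SE 0.17, adjusted p = 0.183 in edgeR). In low replicates 1 to 5 it was 281, 292, 336, 249.7 and 273 CPM. On the arrays it was 323, 372 and 319.9 CPM in static replicates 1, 2 and 4 and 342, 261, 332 and 297 CPM in actuated replicates 1 to 4. All of these lay within the range of the controls apart from static replicate 2.

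Ina encodes alpha-internexin, an early neuronal filament protein, and was the steadiest of the 7 genes. Its 5 controls lay between 389 and 406 CPM, a coefficient of variation of 1.88%, and its highest value over all 21 libraries was 1.75 times its lowest, against 7.57 times for Nes. In high replicates 1, 2, 3 and 6 it was 275, 356, 253 and 389 CPM, and in low replicates 1 to 5 it was 283, 343, 378, 354 and 298 CPM. Every medium library was below every control, although high replicate 6 (388.71 CPM) was below control replicate 3 (388.77 CPM) by far less than the spread of the groups. The share of all genes that separate in this way was not counted, so it is not read as particular to Ina. The log2 differences were -0.32 (SE 0.12, adjusted p = 0.183 in edgeR) for high and -0.26 (SE 0.11, adjusted p = 0.26 in edgeR) for low intensity, and these 2 comparisons share their controls. On the arrays Ina was 403, 389 and 337 CPM in static replicates 1, 2 and 4, and 443, 413, 364 and 353 CPM in actuated replicates 1 to 4.

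Prph encodes peripherin, the filament protein of spinal motor and peripheral neurons, and is also 1 of the motor neuron markers above. It was 491, 738, 506, 443 and 494 CPM in control replicates 1, 2, 3, 5 and 6, and 347, 411, 298 and 509 CPM in high replicates 1, 2, 3 and 6. High replicates 1 to 3 lay below every control, and the log2 difference was -0.45 (SE 0.16, adjusted p = 0.151 in edgeR). Values in low replicates 1 to 5 were 377, 537, 599.8, 537 and 452 CPM, with replicate 1 below every control and the other 4 within their range. Static replicates 1, 2 and 4 gave 576, 586 and 474 CPM, and actuated replicates 1 to 4 gave 629, 529.9, 545 and 516 CPM.

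Actuation of the array left the 7 genes within their replicate spread. Against the static array the log2 differences ran from -0.22 for Nes to 0.06 for Ina, and no gene of the 7 had an unadjusted p under 0.05 or was called by DESeq2 or limma-voom. In that comparison 0% of all genes fitted were called and 0.380% had an unadjusted p under 0.05 in edgeR's test. The 95% intervals on the log2 scale were -0.22 to 0.29 for Nefl, -0.20 to 0.33 for Ina and -0.45 to 0.50 for Nefm. They were -0.51 to 0.24 for Nefh, -0.32 to 0.37 for Prph and -0.53 to 0.48 for Vim. The widest was that of Nes, -0.98 to 0.54. Between high and low intensity 0% of all genes were called as well. All 7 log2 differences were below 0 there, and Vim, Prph and Nefh had unadjusted p-values of 0.0301, 0.0332 and 0.0318 (adjusted p = 0.612 for each in edgeR), with none called by DESeq2 or limma-voom. An unadjusted p under 0.05 was found for 7.68% of all genes in that comparison.

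**Figure D3:**
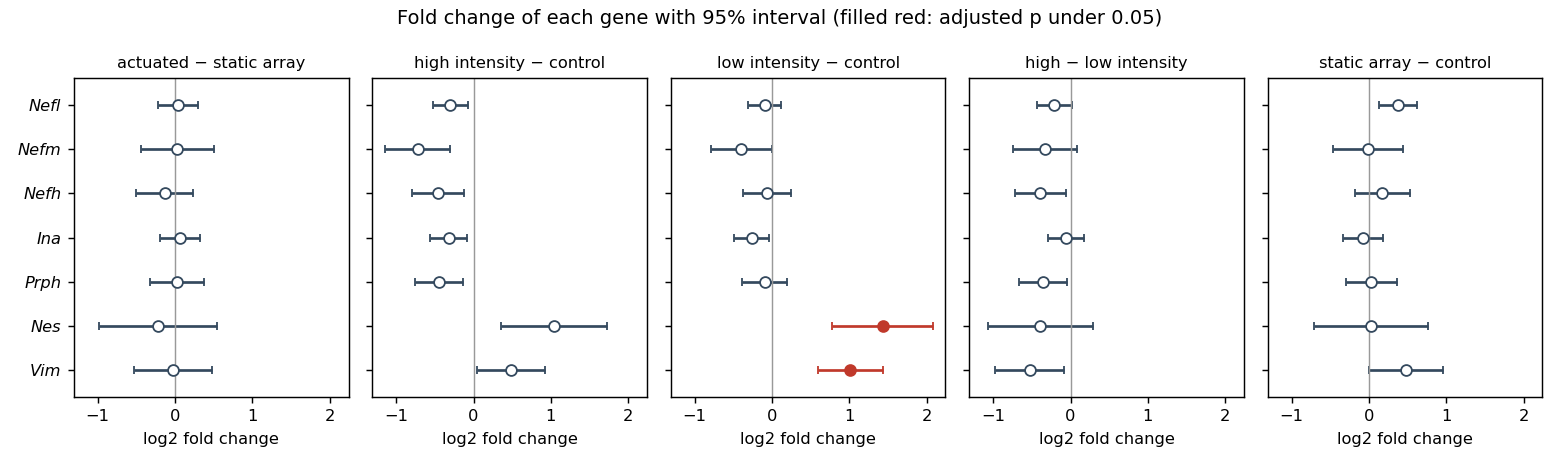
Each panel is 1 of the 5 comparisons and gives the log2 fold change of the 7 genes (horizontal axis) with its 95% interval, filled red where the adjusted p is under 0.05. Nes at 1.43 and Vim at 1.01 in low intensity against control are the only filled points.

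How the 7 genes varied together was measured over their 21 pairs on log2 CPM, with p-values from 100000 permutations adjusted over the pairs. Nes and Vim went together: over the 14 libraries of the medium experiment r was 0.91 (adjusted permutation p 0.00042) and rho 0.80 (adjusted permutation p 0.00616), and r was 0.85 without the 2 libraries farthest from the median of Nes. Over all 21 libraries r was 0.77 (adjusted permutation p 0.00084) and rho 0.46 (adjusted permutation p 0.0572), and over the 7 array libraries r was 0.75. Nefl went against Nes, with r of -0.71 over 21 libraries (adjusted permutation p 0.00116; rho -0.74, adjusted p 0.00179), -0.65 in the medium experiment and -0.62 on the arrays. Nefl and Prph went together, with r of 0.76 over 21 libraries (adjusted permutation p 0.00042; rho 0.79, adjusted p 0.00084), 0.87 in the medium experiment and 0.70 on the arrays.

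For Ina the 2 experiments differed in sign. Ina and Vim had r of -0.78 in the medium experiment (adjusted permutation p 0.00648; rho -0.83, adjusted p 0.00616) and 0.52 on the 7 array libraries. Ina and Nes likewise had -0.81 (adjusted permutation p 0.00491; rho -0.82, adjusted p 0.00616) and 0.13. The difference between the 2 experiments was not tested. Nefl and Nefm, subunits of 1 filament, were not the closest pair: r was 0.56 over 21 libraries (adjusted permutation p 0.015; rho 0.51, adjusted p 0.0445), 0.54 in the medium experiment and 0.10 on the arrays. All of these libraries share the scaling to 1 total, and the groups differ in level. With each group's mean removed, r was 0.83 for Nes and Vim, 0.75 for Nefl and Prph, -0.68 for Nefl and Nes, and 0.18 for Nefl and Nefm.

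**Figure D4:**
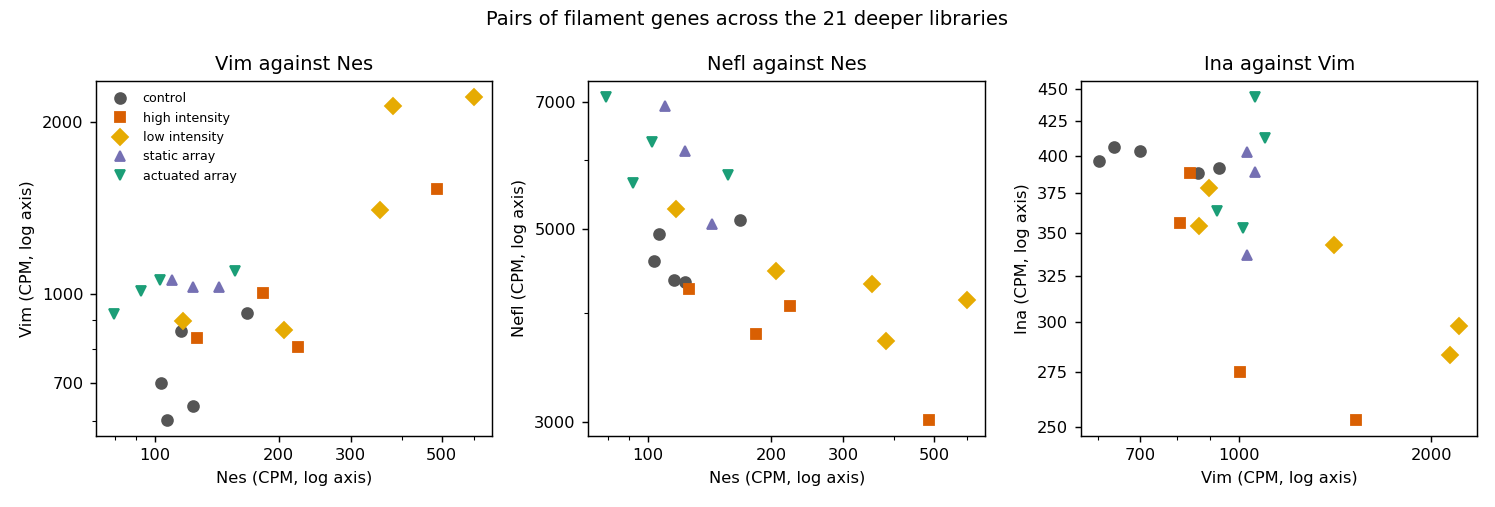
The 3 panels set Vim against Nes, Nefl against Nes and Ina against Vim in CPM on log axes, with 1 point per deeper library and the group as the symbol. Low replicates 1, 2 and 5 and high replicate 3 form the end of high Nes and Vim in each panel, and 6 of the 7 array libraries lie above every medium library in Nefl, static replicate 4 being the exception. How many of all genes separate in this way was not counted.

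Among the 9629 protein-coding genes with a mean of at least 10 CPM, the genes nearest to each of the 7 by r over the 21 libraries were named. For Nes they were Lgals1 (galectin-1, r 0.97), Myh9 (non-muscle myosin heavy chain, 0.96) and Ahnak (a large scaffold protein, 0.94), and Vim was 132nd. For Vim they were Msn (moesin, 0.92), Pttg1ip (0.89) and Ncl (nucleolin, 0.89). For Ina they were Elavl3 (a neuronal RNA-binding protein, 0.93), Tspyl4 (0.92) and Clstn3 (calsyntenin-3, 0.91). For Nefl they were Nap1l2 (0.94), Dpysl3 (0.91) and Aplp1 (0.90), and Nefm was 840th. For Prph they included Chgb (chromogranin B, 0.93) and Habp4 (0.88). The nearest genes of Nefm, Pcdh10 (0.84), Stum (0.84) and Pcsk2 (0.83), and of Nefh, Ppfia4 (0.85), Ccdc181 (0.85) and Fbxo31 (0.85), were less close. These are descriptions over libraries that share group means and scaling.

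Other genes of the filament system were read from 2 lists. Of 23 other intermediate filament genes 17 could be fitted. In low-intensity medium 1 of the 17 rose, Lmna, the gene of the nuclear lamins A and C, at 156 ± 67.4 CPM (SD, n = 5) against 55.9 ± 13.6 CPM (SD, n = 5), a log2 fold change of 1.49 (SE 0.34, adjusted p = 0.042 in edgeR; 0.377 with all 26 libraries). The call was lost without any 1 of low replicates 1, 2 and 5 (adjusted p 0.12, 0.0817 and 0.117 in edgeR) or any 1 of the 5 controls (0.0562 to 0.0865). In high-intensity medium 1 of the 17 fell, Synm, the gene of synemin, a filament protein that polymerises with vimentin or desmin. Its mean was 55.4 ± 13.1 CPM (SD, n = 4) against 85.7 ± 8.53 CPM (SD, n = 5), a log2 fold change of -0.62 (SE 0.14, adjusted p = 0.0435 in edgeR; 0.728 with all 26 libraries), and the call was lost without any 1 of high replicates 1, 2 and 3 (adjusted p 0.0714, 0.105 and 0.204) or of control replicates 1, 2, 3 and 5 (0.063, 0.0599, 0.0935 and 0.0725). None of the 17 was called in the other 3 comparisons. Of all genes fitted, 0.441% were called higher in low-intensity and 0.156% lower in high-intensity medium. The list's median log2 fold change was 0.28 in low-intensity and 0.23 in high-intensity medium, against -0.01 and 0.00 over all genes. By level per length the list was led by Gfap (865 TPM), the filament gene of astrocytes, then Lmnb1 (90.7 TPM), Lmna (59.8 TPM) and the keratin gene Krt18 (24.9 TPM). Gfap, the closest to Nefl and Vim in level, had a log2 difference of 0.61 (SE 0.18, adjusted p = 0.107 in edgeR) on the static array against control.

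All 42 genes of filament linkers, kinases, turnover and transport could be fitted. In low-intensity medium 1 of 42 rose, the small heat shock gene Hspb1, at 87.4 ± 44.1 CPM (SD, n = 5) against 37.1 ± 5.67 CPM (SD, n = 5), a log2 fold change of 1.25 (SE 0.29, adjusted p = 0.0443 in edgeR; 0.346 with all 26 libraries). That call was lost without low replicate 1 (0.14), 2 (0.072) or 5 (0.133) and without control replicate 1 (0.0786), 2 (0.0605), 3 (0.0921) or 5 (0.0725). On the static array against control 3 of 42 fell: Dst, the gene of dystonin, which links filaments to other cytoskeleton, by 0.52 on the log2 scale (SE 0.10, adjusted p = 0.0148 in edgeR), Dync1h1, the heavy chain of dynein, by 0.55 (SE 0.11, adjusted p = 0.0189), and Macf1, a linker of microtubules and actin, by 0.41 (SE 0.10, adjusted p = 0.0414). Each lost its call without any 1 of static replicates 1, 2 and 4 (adjusted p 0.0659, 0.0781 and 0.197 for Dst, 0.101, 0.0894 and 0.191 for Dync1h1, 0.204, 0.186 and 0.201 for Macf1 in edgeR), Macf1 also without any 1 of control replicates 1, 2 and 5 (0.0612, 0.0674 and 0.0685), and all 3 had an adjusted p of 1 with all 26 libraries. In uncentred TPM their differences turn positive (0.09, 0.15 and 0.27). The list's medians were -0.05 in both comparisons, and the other 3 comparisons gave no call. Of all genes fitted, 0.441% were called higher in low-intensity medium and 0.414% lower on the static array, each against control. Its most abundant genes were Kif5c (615 TPM), a kinesin of axonal transport, Sod1 (385 TPM), Uchl1 (292 TPM) and Macf1 (221 TPM), and Kif5c, Sod1 and Uchl1 were called in no comparison.

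The levels of other cell types' markers are given beside Nes and Vim. In high-intensity medium all 18 mesenchymal and fibroblast markers had log2 differences above 0 (median 1.12), and in low-intensity medium 17 of 18 did (median 0.70), although none of the 18 was called. Their summed level was 1030.2 to 1871 CPM in the controls, 1714 to 4148 CPM in high-intensity and 887 to 5177 CPM in low-intensity medium, 628 to 2246 CPM on the static and 468 to 1558 CPM on the actuated array. It was 1553, 5177, 887, 1780.4 and 2783 CPM in low replicates 1 to 5. Low replicate 1, the library with the second highest Vim, thus had a mesenchymal sum within the control range. The list was led by Fn1 (162 TPM), Acta2 (127 TPM) and Tagln (74.1 TPM), and no gene of it was at 0 in all libraries. Astrocyte and radial glia markers, of which none of 12 was called, summed to 3279.6 to 4043 CPM in the controls, 3496 to 3933 CPM in high-intensity and 3093 to 4973 CPM in low-intensity medium, and 3890 to 5617 CPM on the 2 arrays. Low replicate 1 was the highest of the medium libraries, at 4973 CPM, and low replicate 5, with the most Nes, was the lowest, at 3093 CPM.

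For pan-neuronal markers the sum was 4582 to 4874 CPM in the controls and 3608, 3985, 3124 and 4722 CPM in high replicates 1, 2, 3 and 6. In low replicates 1 to 5 it was 3527, 3956, 4847, 4539 and 3828 CPM. Nes in the same libraries was 380.4, 354, 117, 206 and 601 CPM. In high-intensity medium 12 of 12 had a log2 difference below 0 (median -0.30), with none called. The 4 neurofilament genes and Prph lay between -0.72 and -0.30 there, and Nes and Vim were at 1.04 and 0.48. In low-intensity medium Elavl4 fell by 0.59 on the log2 scale (adjusted p = 0.037 in edgeR, 0.93 with all 26 libraries). Without any 1 of low replicates 1, 2 and 5 or control replicates 1, 2 and 5 the Elavl4 call was lost (adjusted p 0.052 to 0.12 in edgeR). Motor neuron markers, of which 9 were fitted, had 1 log2 difference above 0 in each medium comparison. Their medians were -0.23 in high and -0.39 in low intensity, with none called. Of 14 fitted neural progenitor markers 8 had a log2 difference above 0 in each medium comparison, with medians of 0.18 (minimum -0.71) in high and 0.11 (minimum -0.62) in low intensity. The 2 called in high intensity and the 1 called in low intensity are proliferation genes: Mki67 and Top2a rose in high-intensity medium (log2 1.31 and 1.30, adjusted p 0.0364 and 0.0448 in edgeR; 0.169 and 0.193 with all 26 libraries), and Top2a rose in low-intensity medium (log2 1.28, adjusted p 0.0373; 0.41 with all 26 libraries). Without high replicate 3 the 2 log2 differences in high-intensity medium were 0.93 and 0.82 (adjusted p 0.169 and 0.251 in edgeR). Their calls were also lost without any 1 of high replicates 1 and 2 and control replicates 2, 3 and 5, and for Top2a control replicate 1 (0.0589 to 0.0883). In low-intensity medium the Top2a call was lost without any 1 of low replicates 1, 2 and 5 or control replicates 1, 2, 3 and 5 (0.059 to 0.12). Of all genes fitted, 0.305% were called higher in high-intensity medium. In low-intensity medium 0.441% were called higher and 0.156% lower. Skeletal muscle markers were near 0, with 11 of 14 under 1 TPM, Myog at 0 in 18 of 21 libraries and Des at 20.4 TPM. Of the blood markers, Hba-a1 and Hbb-bt were at 0 in all 21, and all 10 pluripotency and endoderm markers were under 1 TPM. The part of these other cells and of proliferation in the levels of Nes, Vim and the neurofilament genes was not tested.

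**Figure D5:**
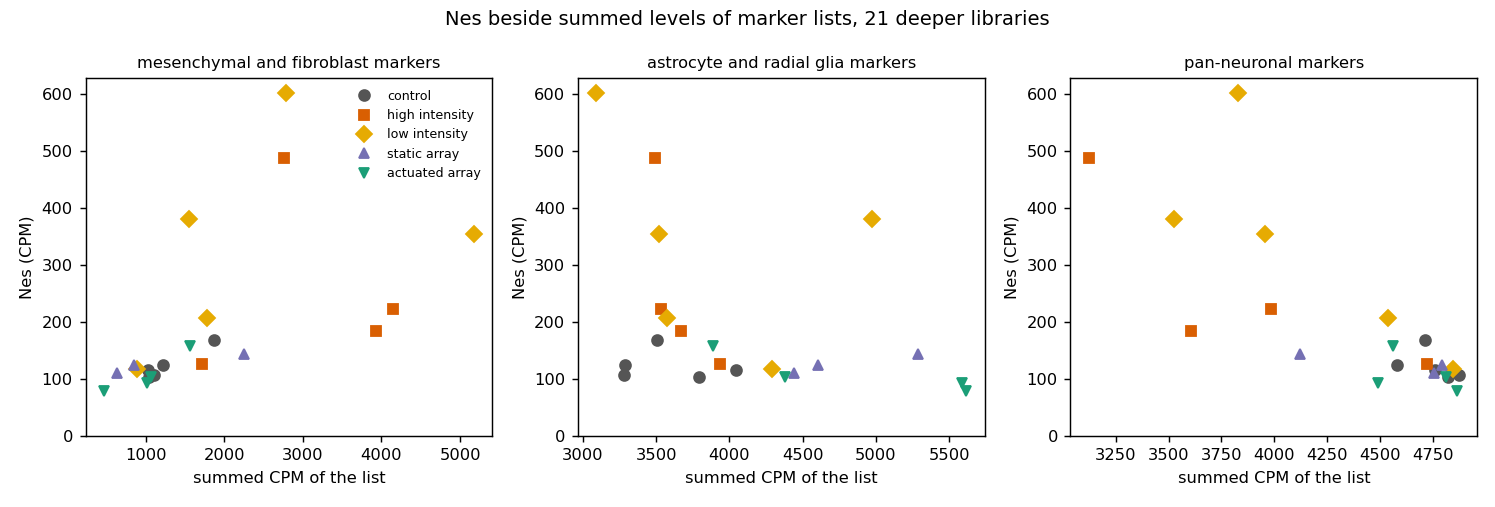
Nes in CPM (vertical axis) is set against the summed CPM of mesenchymal, astrocyte and pan-neuronal markers (horizontal axes, not starting at 0) in the 21 deeper libraries, with the group as the symbol. The 4 libraries of highest Nes, at 354 to 601 CPM, lie at 3124 to 3956 CPM of pan-neuronal markers, below all controls, while their mesenchymal sums run from 1553 to 5177 CPM. High replicates 1 and 2, low replicate 4, static replicate 4 and actuated replicates 2 and 4 also lie below all controls in pan-neuronal markers. Their Nes is 92.3 to 223 CPM.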

How the data were processed

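RNA sequencing covered 26 libraries made, per the labels' protocols, with a low-input kit for fragmented total RNA in which library fragments from rRNA are cleaved by ZapR, from 4 ng of RNA except for 8 samples used at full volume that the labels do not name. Neither separate cultures nor molecular identifiers are mentioned, so counting errors are lower limits. The estimated counts deposited by the authors are whole numbers not scaled for depth, and were rounded here, which changed none. The TPM values deposited by the authors sum to 1000000 per library. Per the submitters' processing notes the tools were BWA 0.7.12-r1039, bedtools 2.25.0, STAR and Salmon with mm10, hg19 and GRCm39, with no role given. The aligner and build behind the tables are therefore not given in the sources used here, and no coordinates are taken from the tables. The only coordinates printed are those of the promoter windows, in the build of the RefSeq table. Whether counting used the strand is likewise not given in the sources used here.

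Counts were tested with edgeR 4.0.16 (R 4.3.3): filterByExpr, TMM, glmQLFit with 1 coefficient per group over the 21 deeper libraries, and glmQLFTest for 5 comparisons, with Benjamini-Hochberg adjustment over all 14730 genes fitted. Depth was 1551334 to 13162635 counts per deeper library, and the lowest count of any of the 7 genes in them was 228. On data simulated for low intensity against control (14306 genes), 58 of 100 genes changed by 1 on the log2 scale and 89 of 100 changed by 2 were called. Correlations used log2 CPM with a prior count of 2. Alternatives were all 26 libraries, DESeq2 1.42.0, limma 3.58.1 (voom; TPM with a pseudocount of 1 or 0.1), other filters, a replicate block and leaving out each library. TPM centred on the median gene and libraries left out from outside a comparison were added after seeing the data. The 7 genes and the lists of other genes were chosen with earlier results of these data known. Named genes of the 2 filament lists are those called in any comparison and the 4 of highest mean TPM. Nearest genes are the 3 protein-coding genes of highest r with a mean of at least 10 CPM, of which 1 is not reported here, and markers named by rule are the 3 of highest mean TPM in a list and those at 0 in all libraries. Other markers were named after their values were seen. Promoters came from RefSeq (GRCm38.p6).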

Additional observations from a re-analysis of the deposited data

Results flagged for a closer look

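Of 28 sets of 4 or 5 libraries (each of the 7 genes in each group of that size), 1 held a library far from the others. Prph in control replicate 2 was at 738 CPM, and the nearest other control was at 506 CPM. The gap took 0.785 of the group's whole range, above the critical value of 0.71. Chance flags about 1 in 20 such sets, so 1 of 28 is about what chance gives.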

How the results depend on the processing

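Nes and Vim kept their sign in low intensity against control under all 12 alternatives, with log2 fold changes of 1.22 to 1.99 and 0.81 to 1.65, and their calls depended on the setting. The number of members called there was 2, and it was 0 with all 26 libraries, with limma-voom (adjusted p 0.219 for Nes and 0.154 for Vim), with only the 2 groups compared (0.0794 and 0.0918), with TPM centred on the median gene (0.0852 and 0.0531) and with a replicate block (0.164 and 0.124), and 0 to 2 when 1 library was left out. Nefm was called lower there under 1 alternative. Nefl was called higher there in uncentred TPM, with its sign reversed (lowest adjusted p 0.0307 in limma). In high intensity against control the members called were 0, and 4 with no filter on low counts (Nefm, Prph, Nes and Vim), 2 with either TPM pseudocount (Nes and Vim), and 0 to 3 with 1 library left out. In high against low intensity they were 0, and 1 with no filter (Vim). In static array against control they were 0, 2 with no filter and with either TPM pseudocount (Nefl and Vim), 1 with limma-voom (Nefl). In actuated against static array they were 0 throughout. Over the whole table, genes called in low intensity against control numbered 88, and 4 with all 26 libraries, 1 with limma-voom, 8 with the block, 21 with only the groups compared, 48 with centred TPM, 471 with DESeq2, 660 with no filter, 378 at an adjusted p under 0.1 and 5440 to 5537 with TPM. For high intensity these genes called were 68, and 6, 0, 2, 17, 2, 467, 700, 294 and 2292 to 2324. For static array they were 105, and 2, 151, 36, 42, 17, 381, 459, 234 and 1091 to 1145. For actuated against static array they were 0, and 5 with DESeq2 and 40 with no filter, and for high against low intensity 0, and 41 with DESeq2, 126 with no filter, 10 at an adjusted p under 0.1, 7 with centred TPM and 1 to 2 with TPM.

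Sign changes were confined to values that were not called in the main fit, apart from Dst, Dync1h1 and Macf1. Of these values, Nefl in low intensity against control was called with the other sign in uncentred TPM. The uncentred TPM scale puts the median of all genes 0.53 (high), 0.64 (low) and 0.50 (static) higher against control, 0.11 higher for actuated against static array and -0.10 for high against low intensity, on the log2 scale, and the protein-coding share of TPM was 24.1 to 44.5% in the controls and 40.1 to 66.9% elsewhere. With pseudocounts of 1 and 0.1, high intensity against control became 0.32 and 0.32 for Nefl, 0.15 and 0.15 for Nefh, 0.29 and 0.29 for Ina and 0.11 and 0.11 for Prph. Low intensity became 0.66 and 0.66 for Nefl, 0.33 and 0.33 for Nefm, 0.70 and 0.71 for Nefh, 0.48 and 0.48 for Ina and 0.60 and 0.60 for Prph. Static array against control became 0.54 and 0.54 for Nefm, 0.49 and 0.50 for Ina, 0.0923 and 0.0932 for Dst, 0.15 and 0.15 for Dync1h1 and 0.27 and 0.27 for Macf1, and actuated against static array 0.13 and 0.13 for Vim. Centred on the median gene, values of the other sign were Ina 0.0049 and Nefm 0.0507 for static array, Nefh 0.0448 and Nefl 0.0024 for low intensity, and Vim 0.0214 for actuated array. Limma-voom gave -0.0267 for Nefl, -0.0185 for Nefm and -0.0066 for Prph on the actuated array, 0.12 for Nefm on the static array and 0.0416 for Prph in low intensity. With all 26 libraries Nefm was 0.034 in high against low intensity, Nes -0.0618 on the static array and Vim 0.19 on the actuated array. For static array against control, Nes was -0.0021 with DESeq2 and -0.0032 with its size factors, Nefm 0.0286 with a minimum of 1 CPM in 4 libraries, 0.0136 without mitochondrial and rRNA genes and 0.0799 with no filter, and Ina 0.0105 with no filter, while Nefm was -0.0012 on the actuated array with no filter. The cause of these changes of sign was not tested.

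With 1 library left out, 12 differences that were not called changed sign. For actuated against static array the ranges were -0.0088 to 0.12 for Ina, -0.0765 to 0.14 for Nefl, -0.14 to 0.28 for Nefm, -0.0656 to 0.0787 for Prph and -0.0582 to 0.0239 for Vim. For static array against control they were -0.12 to 0.0075 for Ina, -0.25 to 0.17 for Nefm, -0.0681 to 0.16 for Nes and -0.0321 to 0.17 for Prph. They were -0.18 to 0.0086 for Nefh and -0.17 to 0.0482 for Prph in low intensity against control, and -0.17 to 0.0369 for Ina in high against low intensity.

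Between libraries with the same number, correlations of deviations from the group means ran from -0.22 to 0.18. They were 0.14, -0.12 and 0.18 for replicates 1, 2 and 4 of actuated against static array. Libraries with different numbers were not correlated as a reference, so whether the numbers pair the samples was not settled. The replicate block gave Nes 1.22 and Vim 0.97 in low intensity against control and turned Nefh to 0.0158. Depth limits the medium libraries most, with 1551334 to 3971348 counts, and Nes has as few as 228 of them.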
